A study of Mus musculus with 16 samples.

Results

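The genes described are 44 enzymes and transporters of glucose breakdown, the pentose phosphate pathway and the tricarboxylic acid (TCA) cycle, measured in cultured mouse aortic smooth muscle cells of 2 genotypes in 2 media. They were taken by gene symbol from the deposited table of 20581 genes. Each of the 44 was found on 1 line, and all 44 passed the filter on low counts that left 14217 genes for testing. Glycolysis turns glucose into pyruvate in the cytosol, and lactate dehydrogenase interconverts pyruvate and lactate. The pentose phosphate pathway branches off at glucose phosphate, makes NADPH in its oxidative arm and rearranges sugars in its non-oxidative arm. In mitochondria, pyruvate dehydrogenase makes acetyl-CoA, pyruvate carboxylase makes oxaloacetate and citrate synthase joins them. Citrate is then oxidised in the TCA cycle or exported to the cytosol, where it supplies carbon for fatty acid synthesis, which uses NADPH. Smooth muscle cells of the artery wall are known for marked glycolysis even with oxygen present, and they can store lipid in atherosclerosis. The genes were divided by role into glycolytic (19), NADPH-making (5), non-oxidative pentose phosphate (3) and citrate-making (6) genes and the rest of the TCA cycle (11).

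RNA was sequenced in 16 libraries, 4 from each of 4 groups. KO cells came from C57BL/6J mice without Arg1 in their red blood cell lineage, made with a Cre recombinase driven by the erythropoietin receptor gene and floxed Arg1, and WT cells from their littermates. Both genotypes were cultured in DMEM, a standard culture medium (Dulbecco's modified Eagle medium), to which 10% fetal bovine serum was added. For lipid loading, cultures at 80% confluency received DIAM, which is DMEM with 0.1 µM dexamethasone, 1 µM insulin and 50 µg/mL L-ascorbic acid, for 10 days. The groups are called KO DIAM, WT DIAM, KO DMEM and WT DMEM. The deletion was not aimed at the smooth muscle cells themselves, so the comparison of genotypes is between cells from mice whose blood lineage differed. The age of the mice, which alleles the WT littermates carried and whether DIAM held serum are not given in the sources used here. The days in culture of the DMEM libraries are not given either, so medium and time in culture cannot be told apart. The series' design text gives 4 biological replicates per group and the library protocol speaks of triplicates.

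Each library held between 37221313 and 47626242 counts. Arg1 had 1 to 4 counts in the KO DIAM libraries, 0 to 9 in WT DIAM, 2 to 49 in KO DMEM and 3 or 4 in WT DMEM, which says nothing about the genotype labels because the deletion was made in another lineage. Although every library is labelled male, Xist, the RNA that silences an X chromosome in female cells, was present in all 16, at 102 to 326 CPM (counts scaled to a common library size, with trimmed-mean factors). Y-linked genes were not analysed here. G6pdx, Pgk1, Pdha1 and Idh3g lie on the X chromosome. Smooth muscle markers were present: all 8 were tested, and their summed level was 1139 to 2094 CPM in KO DIAM, 1048 to 1713 CPM in WT DIAM, 2292 to 3995 CPM in KO DMEM and 2927 to 3779 CPM in WT DMEM. Of these 8, Acta2, Tagln, Cnn1 and Smtn fell in DIAM in both genotypes, Myocd, a coactivator of smooth muscle genes, rose in both (log2 2.22 in KO and 1.36 in WT cells), Lmod1 rose in KO cells (0.54), and Myh11 and Des did not pass. Markers of other cells were present too. The summed level of 7 macrophage markers, Lyz2 among them, was 1248 to 1667 CPM in KO DIAM, 1037 to 1824 CPM in WT DIAM, 1114 to 2427 CPM in KO DMEM and 849 to 1826 CPM in WT DMEM. Lyz2 made up most of this sum, with means of 1080.5, 1039, 1417 and 1193 CPM in the same groups. Of the others, Mrc1 rose in DIAM in both genotypes (log2 1.66 in KO and 2.43 in WT cells). Cd68 and C1qa rose in WT cells, Ptprc and Adgre1 fell in KO cells, and Csf1r passed in neither. Adipocyte markers, 7 of 8 tested, summed to 2436 to 3515 CPM in KO DIAM, 1701 to 2599 CPM in WT DIAM, 69.1 to 119.9 CPM in KO DMEM and 86.9 to 112.3 CPM in WT DMEM. All 7 rose in DIAM in both genotypes. None of them averaged 0 in any group, but 2 were under 1 CPM in DMEM. These were Cidec (0.442 CPM in KO DMEM and 0.510 CPM in WT DMEM) and Retn (0.278 and 0.218 CPM), so their fold changes start from very low counts. Fibroblast markers, 7 of 7 tested, summed to 2043 to 2222 CPM in KO DIAM and 1932 to 2275 CPM in WT DIAM. Their sum was 1851 to 2057 CPM in KO DMEM and 1802 to 2138 CPM in WT DMEM. Of these 7, 5 rose in DIAM and 2, Lum and Col14a1, fell, in each genotype. The bulk libraries cannot separate more cells of a kind from more RNA per cell, and the part of these markers in the results below was not tested.

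Moving to DIAM split the pathway. In KO cells 30 of the 44 genes (68.2%) rose and 3 (6.82%) fell, by edgeR's quasi-likelihood test at a Benjamini-Hochberg adjusted p under 0.05, while of all genes tested 60.7% were called, 29.8% higher and 30.8% lower. In WT cells 27 (61.4%) rose and 8 (18.2%) fell, against 55.1% of all genes called, 27.6% higher and 27.5% lower. All DIAM libraries lay above all DMEM libraries for 30 of the 44 genes in KO cells and 21 in WT cells, and below them for 2 and 7. Over all genes tested such groups without overlap made up 55.1% in KO cells (27.3% higher, 27.8% lower) and 49.0% in WT cells (24.3% higher, 24.7% lower). Most of the rises lay outside glycolysis. All 6 citrate-making genes, 10 of 11 in the rest of the TCA cycle and 4 of 5 NADPH-making genes rose in each genotype, whereas of the 19 glycolytic genes 7 rose and 3 fell in KO cells, and 5 rose and 8 fell in WT cells. The median log2 fold change was 1.03 in KO cells and 0.63 in WT cells for the citrate-making genes, 0.75 and 0.46 for the NADPH-making genes, 0.76 and 0.46 for the rest of the TCA cycle, and -0.01 and -0.15 for the glycolytic genes. Over all genes tested it was -0.02 in KO cells and -0.01 in WT cells. The KO and WT comparisons share no library. Of the 44 genes, 26 rose in both, 3 fell in both and none moved in opposite directions. The matching shares over all genes were not computed, so this agreement is not shown to be particular to the 44. With quantile normalization the split over all genes was 3662 higher and 5107 lower in KO cells and 3287 and 4886 in WT cells, against 4243 and 4380, and 3929 and 3910, here, and that of the 44 genes was 29 and 5, and 26 and 9. The plot of both fold changes by branch shows the split. Adipocyte markers rose alongside, with median log2 fold changes of 5.83 in KO cells and 5.06 in WT cells.

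**Figure D1:**
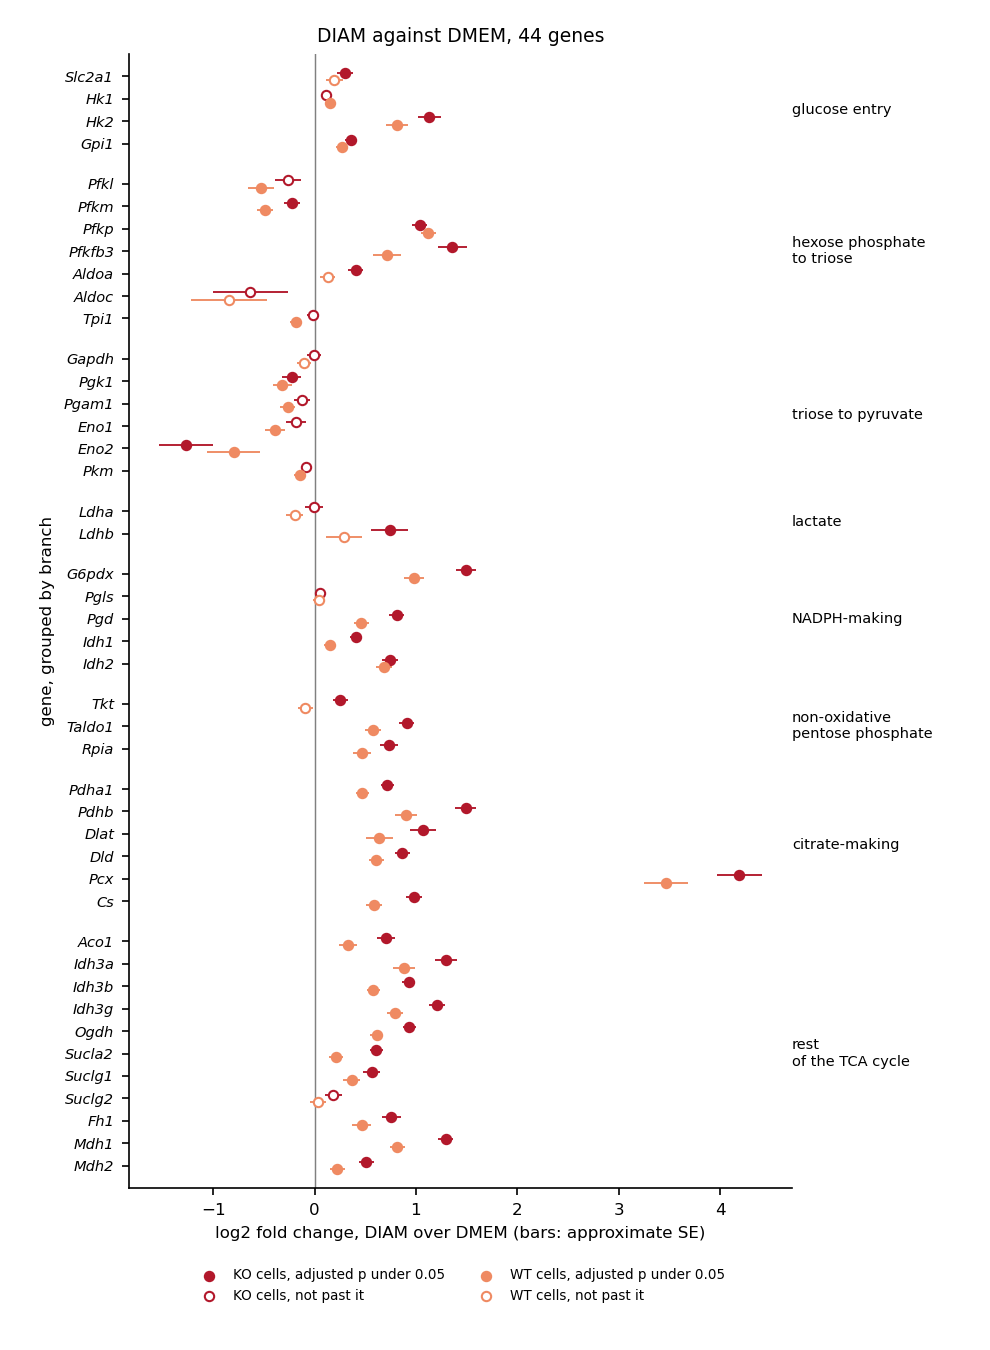
Log2 fold change of DIAM over DMEM (x axis) for the 44 genes grouped by branch (y axis), in KO cells (dark red) and WT cells (orange). Filled points passed an adjusted p under 0.05 in edgeR's test, open points did not, and bars are approximate standard errors. Pcx stands at 4.19 in KO cells and 3.46 in WT cells, the citrate-making and TCA cycle genes lie right of 0, and the genes from Gapdh to Pkm lie at or left of 0.

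Of the 4 genes of glucose entry, Hk2 changed most. Hk2 (ENSMUSG00000000628), the insulin-responsive hexokinase of muscle and fat that traps glucose in the cell, had 69.3, 69.5, 58.8 and 65.7 CPM in KO DIAM, 55.8, 40.5, 61.8 and 61.4 CPM in WT DIAM, 27.9, 32.8, 32.2 and 27.2 CPM in KO DMEM, and 30.1, 29.1, 32.5 and 33.2 CPM in WT DMEM. Every DIAM library lay above every DMEM library of its genotype. The log2 fold change was 1.13 (approximate SE 0.11, adjusted p = 2.96e-07, edgeR) in KO cells and 0.81 (SE 0.11, adjusted p = 1.41e-05) in WT cells. Gpi1, which turns glucose phosphate into fructose phosphate, had 375, 365, 344 and 351 CPM in KO DIAM, 309, 298, 352 and 331 CPM in WT DIAM, 272, 304, 263 and 279.7 CPM in KO DMEM, and 259.8, 256, 279 and 279 CPM in WT DMEM. It rose less, by 1.28-fold in KO cells and 1.20-fold in WT cells (adjusted p = 7.95e-05 and 0.00126, edgeR), again without overlap. Hk1, the constitutive hexokinase, averaged 107 ± 3.30 CPM in KO DIAM, 113 ± 5.23 in WT DIAM, 98.9 ± 3.69 in KO DMEM and 102 ± 6.07 in WT DMEM (mean ± SD, n = 4, as below) and passed the test in WT cells (adjusted p = 0.0161) but not in KO cells (adjusted p = 0.0559, edgeR). Hk2 took a larger share of the counts of the 2 hexokinase genes in DIAM: 38.0 ± 2.30% in KO DIAM, 32.5 ± 3.78% in WT DIAM, 23.2 ± 1.36% in KO DMEM and 23.5 ± 0.945% in WT DMEM. Slc2a1, the basal glucose transporter, rose 1.23-fold in KO cells (adjusted p = 0.00495, edgeR), and its WT values were 85.2 ± 9.58 CPM in DIAM and 74.5 ± 6.74 CPM in DMEM (adjusted p = 0.0542).

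At the phosphofructokinase step, the committed step of glycolysis, the isoenzymes parted. Pfkp (ENSMUSG00000021196), the platelet-type isoenzyme, had 65.3, 71.1, 70.4 and 67.3 CPM in KO DIAM, 76.9, 81.7, 76.7 and 75.4 CPM in WT DIAM, 30.2, 37.5, 36.8 and 29.0 CPM in KO DMEM, and 36.7, 32.9, 37.1 and 36.0 CPM in WT DMEM. The DIAM libraries all lay above the DMEM libraries, with log2 fold changes of 1.04 in KO cells (SE 0.075, adjusted p = 7.06e-09, edgeR) and 1.12 in WT cells (SE 0.075, adjusted p = 3.35e-09). Pfkm, the muscle-type isoenzyme, fell in both genotypes. It had 34.4, 38.8, 31.3 and 33.0 CPM in KO DIAM, 25.5, 26.9, 34.3 and 31.2 CPM in WT DIAM, 40.0, 39.5, 40.4 and 40.8 CPM in KO DMEM, and 39.6, 41.6, 42.8 and 41.6 CPM in WT DMEM. Its log2 fold change was -0.22 in KO cells and -0.49 in WT cells (adjusted p = 0.0259 and 9.61e-05, edgeR), and DIAM and DMEM libraries did not overlap in either. The KO call was lost without KO DIAM 3, without KO DIAM 4 or without KO DMEM 4. Pfkl, the liver-type isoenzyme, fell in WT cells, to 67.1 ± 15.9 CPM in DIAM against 97.0 ± 5.76 CPM in DMEM (adjusted p = 0.00266, edgeR), and had 80.4 ± 3.56 and 96.7 ± 8.34 CPM in KO cells (adjusted p = 0.0885). Pfkp made up 37.4 ± 1.69% of the counts of the 3 genes in KO DIAM, 45.0 ± 5.94% in WT DIAM, 19.6 ± 1.36% in KO DMEM and 20.5 ± 0.760% in WT DMEM. Shares are read across groups only, since counts are not scaled to transcript length. Pfkfb3, which makes the allosteric activator of phosphofructokinase, had 99.8, 98.5, 78.5 and 91.3 CPM in KO DIAM, 57.9, 41.8, 65.8 and 69.9 CPM in WT DIAM, 37.0, 39.7, 33.1 and 33.9 CPM in KO DMEM, and 37.1, 28.5, 36.3 and 41.3 CPM in WT DMEM. It rose 2.56-fold in KO cells (adjusted p = 7.41e-07, edgeR) and 1.64-fold in WT cells (adjusted p = 5.04e-04), and in WT cells the lowest DIAM library, WT DIAM 2, was barely above the highest DMEM library. Aldoa, the main aldolase of muscle, had 1136, 1115, 1028 and 1029 CPM in KO DIAM, 925, 750.2, 966 and 931 CPM in WT DIAM, 823, 811, 855 and 762 CPM in KO DMEM, and 855, 795, 826 and 794 CPM in WT DMEM. It rose in KO cells (1.33-fold, adjusted p = 1.34e-04, edgeR), and the WT comparison gave a log2 fold change of 0.13 (adjusted p = 0.142) that passed the test when WT DIAM 2 was left out. Aldoc, the brain-type aldolase, had between 1.56 and 6.97 CPM in the 16 libraries and did not pass in either genotype. Tpi1, which interconverts the triose phosphates, fell slightly in WT cells (log2 fold change -0.18, adjusted p = 0.0142, edgeR) and gave -0.013 in KO cells (adjusted p = 0.861).

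**Figure D2:**
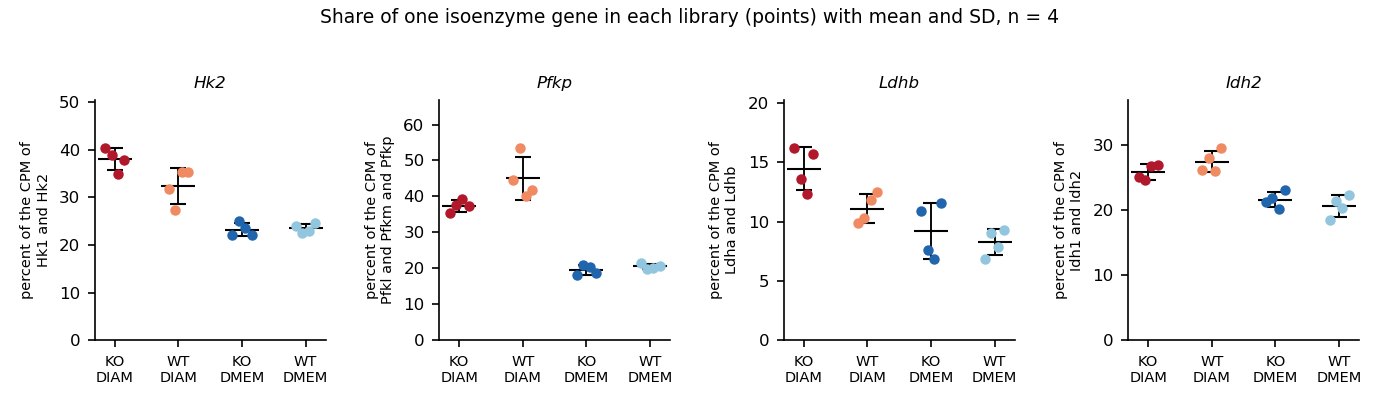
Percent of the CPM of an isoenzyme family (y axis) taken by Hk2, Pfkp, Ldhb and Idh2 in each library (points) of the 4 groups (x axis), with mean and SD, n = 4. In both genotypes each DIAM library lies above each DMEM library for all 4 genes, and for Pfkp the WT DIAM libraries also lie above the KO DIAM libraries.

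From triose to pyruvate no gene rose. Of the 6 genes, Eno2 and Pgk1 fell in both genotypes, Pgam1, Eno1 and Pkm fell in WT cells and did not pass in KO cells, and Gapdh passed in neither. Eno2, the neuronal enolase, had 7.71, 5.95, 9.26 and 12.8 CPM in KO DIAM, 11.9, 14.9, 8.60 and 13.2 CPM in WT DIAM, 14.6, 31.5, 19.2 and 20.8 CPM in KO DMEM, and 18.9, 23.5, 15.4 and 26.5 CPM in WT DMEM. DIAM libraries lay below DMEM libraries without overlap, at log2 fold changes of -1.27 in KO cells (SE 0.27, adjusted p = 7.47e-04, edgeR) and -0.80 in WT cells (SE 0.26, adjusted p = 0.0177). Pgk1, which makes the first ATP of the pathway, had 297, 302, 279 and 261 CPM in KO DIAM, 318, 236, 296 and 261 CPM in WT DIAM, 356, 341, 335 and 302 CPM in KO DMEM, and 404, 323, 341 and 315 CPM in WT DMEM. Its groups overlapped, the log2 fold changes were -0.23 and -0.32 in KO and WT cells (adjusted p = 0.0474 and 0.00939, edgeR), and the KO call was lost without any of KO DIAM 1, 3 and 4 and KO DMEM 1, 2 and 3. Eno1, the main enolase, averaged 674 ± 49.2 CPM in KO DIAM, 603 ± 99.7 in WT DIAM, 764 ± 62.0 in KO DMEM and 791 ± 40.9 in WT DMEM, with log2 fold changes of -0.18 in KO cells (adjusted p = 0.133) and -0.39 in WT cells (adjusted p = 0.00360, edgeR). For Pgam1 the WT log2 fold change was -0.27 and for Pkm, the pyruvate kinase gene, -0.15. Gapdh, which oxidises the triose and is often used as a reference gene, gave 0.00 in KO cells (adjusted p = 0.966) and -0.11 in WT cells (adjusted p = 0.195, edgeR). Several of these genes have processed pseudogenes or near copies in the mouse genome (Gapdh, Eno1, Pgk1, Pgam1, Pkm, Tpi1, Aldoa, Ldha), so reads may have been shared between copies, and their levels are less certain than the others. That fewer genes fell in KO than in WT cells is not shown to be a difference between genotypes, since none of the 44 passed the interaction test by edgeR.

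Lactate dehydrogenase differed by subunit. Ldha, the subunit that favours lactate formation, averaged 540.5 ± 30.8 CPM in KO DIAM, 495 ± 53.1 in WT DIAM, 542 ± 51.8 in KO DMEM and 567 ± 47.0 in WT DMEM, and did not pass the test (adjusted p = 0.963 in KO and 0.0630 in WT cells, edgeR). Ldhb, the heart-type subunit, rose in KO cells (1.67-fold, adjusted p = 0.00224, edgeR) and gave a log2 fold change of 0.29 in WT cells (adjusted p = 0.180). Ldhb took 14.4 ± 1.81% of the counts of both genes in KO DIAM, 11.1 ± 1.24% in WT DIAM, 9.22 ± 2.37% in KO DMEM and 8.26 ± 1.12% in WT DMEM. The plot of isoenzyme shares shows each library.

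The promoters of Hk2, which rose, and Ldha, which did not pass, are shown as 2 glycolytic genes whose start regions both hold the letters of the hypoxia response element core, ACGTG. Each is 300 bases from RefSeq on build GRCm38.p6, from 250 bases before the transcription start to 50 bases after it, on the strand of the gene, with ACGTG on either strand in capitals. The Hk2 window is chr6:82774405-82774704 on the minus strand, and the Ldha window, 1 of 2 for this gene, is chr7:46845554-46845853 on the plus strand.
Hk2: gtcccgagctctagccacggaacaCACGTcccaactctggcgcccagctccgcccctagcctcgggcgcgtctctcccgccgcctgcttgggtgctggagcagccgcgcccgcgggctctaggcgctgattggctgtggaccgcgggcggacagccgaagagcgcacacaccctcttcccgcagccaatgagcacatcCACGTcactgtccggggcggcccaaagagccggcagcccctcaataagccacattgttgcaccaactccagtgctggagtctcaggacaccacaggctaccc
Ldha: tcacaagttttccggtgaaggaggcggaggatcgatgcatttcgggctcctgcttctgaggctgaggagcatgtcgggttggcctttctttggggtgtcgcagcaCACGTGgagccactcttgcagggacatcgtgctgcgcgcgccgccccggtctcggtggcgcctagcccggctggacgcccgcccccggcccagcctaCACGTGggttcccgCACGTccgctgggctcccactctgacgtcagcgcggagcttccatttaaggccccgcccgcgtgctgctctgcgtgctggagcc
In Hk2 the 2 matches begin 226 and 52 bases before the start. In Ldha the matches lie within 145 bases of the start and include CACGTG, the E-box, which reads ACGTG on both strands. At least 1 window with ACGTG was found for 12 of 19 glycolytic genes and 6 of 24 other genes of the set that had a window, or in 48.4% of glycolytic and 34.4% of the other windows, against 19.6% of all 32851 windows of the table. Genes with several start sites count once per window. The 11 matching windows of the other genes came from 6 genes, of which Ogdh alone had more than 1. The share of 34.4% therefore leans on Ogdh and is not shown to hold for the other genes as a set. A match is a description of letters and not of binding.

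Among the NADPH-making genes the oxidative pentose phosphate dehydrogenases and both NADP-dependent isocitrate dehydrogenases rose, and the lactonase between the dehydrogenases did not pass. G6pdx (ENSMUSG00000031400), the rate-limiting first enzyme of the pathway, had 231, 232, 207 and 220.4 CPM in KO DIAM, 165, 123, 181 and 176 CPM in WT DIAM, 80.5, 70.4, 79.3 and 85.7 CPM in KO DMEM, and 76.5, 85.3, 83.2 and 81.9 CPM in WT DMEM. Every DIAM library was above every DMEM library, with log2 fold changes of 1.49 in KO cells (SE 0.097, adjusted p = 1.98e-09, edgeR) and 0.98 in WT cells (SE 0.096, adjusted p = 2.96e-07). Pgd, the following NADPH-making dehydrogenase, had 265, 262, 233 and 255 CPM in KO DIAM, 205, 167, 221 and 223 CPM in WT DIAM, 145, 142, 148 and 142 CPM in KO DMEM, and 147, 143, 156 and 147 CPM in WT DMEM. It rose 1.76-fold in KO and 1.38-fold in WT cells (adjusted p = 9.98e-08 and 6.12e-05, edgeR) without overlap. Pgls, the lactonase between them, stayed between 42.0 and 49.1 CPM in all 16 libraries (adjusted p = 0.367 in KO and 0.529 in WT cells). Idh2, the mitochondrial NADP-dependent isocitrate dehydrogenase, had 100.2, 98.8, 100.0 and 111 CPM in KO DIAM, 91.3, 93.3, 95.4 and 106 CPM in WT DIAM, 59.3, 56.1, 59.0 and 70.4 CPM in KO DMEM, and 51.9, 66.1, 60.1 and 61.3 CPM in WT DMEM. It rose 1.68-fold in KO cells and 1.61-fold in WT cells (adjusted p = 7.25e-07 and 2.25e-06, edgeR), again without overlap. Idh1, its cytosolic counterpart, had 299, 304, 274 and 303 CPM in KO DIAM, 257, 241, 271 and 253 CPM in WT DIAM, 221, 200.1, 233 and 234 CPM in KO DMEM, and 229, 242, 236 and 214 CPM in WT DMEM. The KO rise was 1.33-fold (adjusted p = 1.91e-05, edgeR); the WT rise of 1.11-fold (adjusted p = 0.0445) came with overlapping libraries and was lost without any of WT DIAM 1, 3 and 4 and WT DMEM 1, 3 and 4.

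The G6pdx promoter is shown because this gene had the largest fold change of the NADPH-making genes and its window, chrX:74428831-74429130 on the minus strand, holds the letters of the antioxidant response element core, TGACNNNGC. Both motifs, on either strand, are in capitals.
G6pdx: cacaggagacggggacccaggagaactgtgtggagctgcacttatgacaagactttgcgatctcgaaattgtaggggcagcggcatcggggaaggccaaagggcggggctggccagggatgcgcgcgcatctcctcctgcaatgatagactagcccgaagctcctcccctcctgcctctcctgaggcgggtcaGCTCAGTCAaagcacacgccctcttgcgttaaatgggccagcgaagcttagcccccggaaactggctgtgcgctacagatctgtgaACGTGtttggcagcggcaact
The antioxidant core begins 57 bases before the start and ACGTG begins at base 30 from it. TGACNNNGC was in 12.7% of the windows of the 44 genes and 12.4% of all windows.

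In the non-oxidative arm Taldo1, transaldolase, and Rpia, the ribose phosphate isomerase, rose in both genotypes. Taldo1 had 144, 141, 117 and 131 CPM in KO DIAM, 109, 87.8, 112 and 108 CPM in WT DIAM, 74.7, 67.7, 71.1 and 70.4 CPM in KO DMEM, and 74.1, 67.3, 68.6 and 69.9 CPM in WT DMEM. Rpia had 15.5, 16.7, 14.4 and 14.4 CPM in KO DIAM, 14.2, 11.4, 13.7 and 13.0 CPM in WT DIAM, 8.56, 9.41, 8.96 and 9.77 CPM in KO DMEM, and 8.24, 9.97, 9.78 and 9.77 CPM in WT DMEM. For both genes DIAM and DMEM libraries did not overlap. Fold changes were 1.88 in KO and 1.49 in WT cells for Taldo1, and 1.66 and 1.38 for Rpia (adjusted p = 2.39e-04 or lower, edgeR). Tkt, transketolase, had 246, 245, 213 and 219 CPM in KO DIAM, 183, 153, 204 and 189.9 CPM in WT DIAM, 193, 191, 198 and 193 CPM in KO DMEM, and 183, 199, 200.5 and 196 CPM in WT DMEM. It rose in KO cells (0.25 on the log2 scale, adjusted p = 0.00692, edgeR), while in WT cells the value was -0.091 (adjusted p = 0.307), with WT DIAM 2 the lowest of all 16 libraries.

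The citrate-making step held the steepest rise of the set. Pcx (ENSMUSG00000024892), pyruvate carboxylase, which makes the oxaloacetate that refills the cycle and is known to be induced when fat cells form, had 719.6, 713, 507 and 651 CPM in KO DIAM, 375, 204, 467 and 479.6 CPM in WT DIAM, 37.8, 31.9, 35.9 and 36.4 CPM in KO DMEM, and 31.5, 35.1, 36.3 and 35.4 CPM in WT DMEM. All DMEM libraries were near the same level, KO DIAM libraries were highest, and WT DIAM 2 was the lowest DIAM library. The rise was 18.2-fold in KO cells (log2 4.19, SE 0.22, adjusted p = 5.44e-10, edgeR) and 11.0-fold in WT cells (log2 3.46, SE 0.22, adjusted p = 3.75e-09). Pdhb (ENSMUSG00000021748), the beta subunit of the pyruvate dehydrogenase component that decarboxylates pyruvate, had 139, 139, 109 and 121 CPM in KO DIAM, 85.1, 67.2, 98.1 and 99.2 CPM in WT DIAM, 46.9, 42.7, 45.6 and 45.3 CPM in KO DMEM, and 48.4, 46.4, 48.1 and 44.1 CPM in WT DMEM. It rose 2.81-fold in KO cells and 1.87-fold in WT cells (adjusted p = 5.25e-09 and 2.05e-06, edgeR), without overlap. Its partner Pdha1, the alpha subunit, had 415, 416, 374 and 373 CPM in KO DIAM, 331, 294, 367 and 357 CPM in WT DIAM, 243, 231, 248 and 237 CPM in KO DMEM, and 236, 237, 257 and 243 CPM in WT DMEM. Dlat, the acetyltransferase of the complex, had 145, 138, 113 and 130.4 CPM in KO DIAM, 96.6, 65.2, 108 and 118 CPM in WT DIAM, 64.1, 60.9, 61.3 and 64.3 CPM in KO DMEM, and 60.1, 60.6, 67.1 and 60.8 CPM in WT DMEM. Dld, the dihydrolipoamide dehydrogenase that also serves other complexes, had 161, 158, 130.3 and 146 CPM in KO DIAM, 119, 103, 132 and 129 CPM in WT DIAM, 80.7, 84.1, 80.9 and 81.5 CPM in KO DMEM, and 81.0, 75.8, 81.6 and 77.8 CPM in WT DMEM. These 3 subunits rose in both genotypes, Pdha1 and Dld without overlap, and for Dlat WT DIAM 2 lay within the range of WT DMEM. Cs, citrate synthase, had 344, 343, 296 and 326 CPM in KO DIAM, 252, 208, 283 and 279 CPM in WT DIAM, 163, 161, 174 and 164 CPM in KO DMEM, and 163, 167, 181 and 169.9 CPM in WT DMEM. Its rise was 1.98-fold in KO cells and 1.50-fold in WT cells (adjusted p = 3.51e-08 and 1.45e-05, edgeR), without overlap. Summed over the 6 genes the level was 1777 ± 183 CPM in KO DIAM, 1279 ± 244 in WT DIAM, 630.5 ± 14.3 in KO DMEM and 636 ± 24.4 in WT DMEM. Over the 19 glycolytic genes it was 6347 ± 269 CPM in KO DIAM, 5817 ± 501 in WT DIAM, 6090 ± 292 in KO DMEM and 6240 ± 275 in WT DMEM (SD, n = 4), and the ranges of the 4 groups overlapped.

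**Figure D3:**
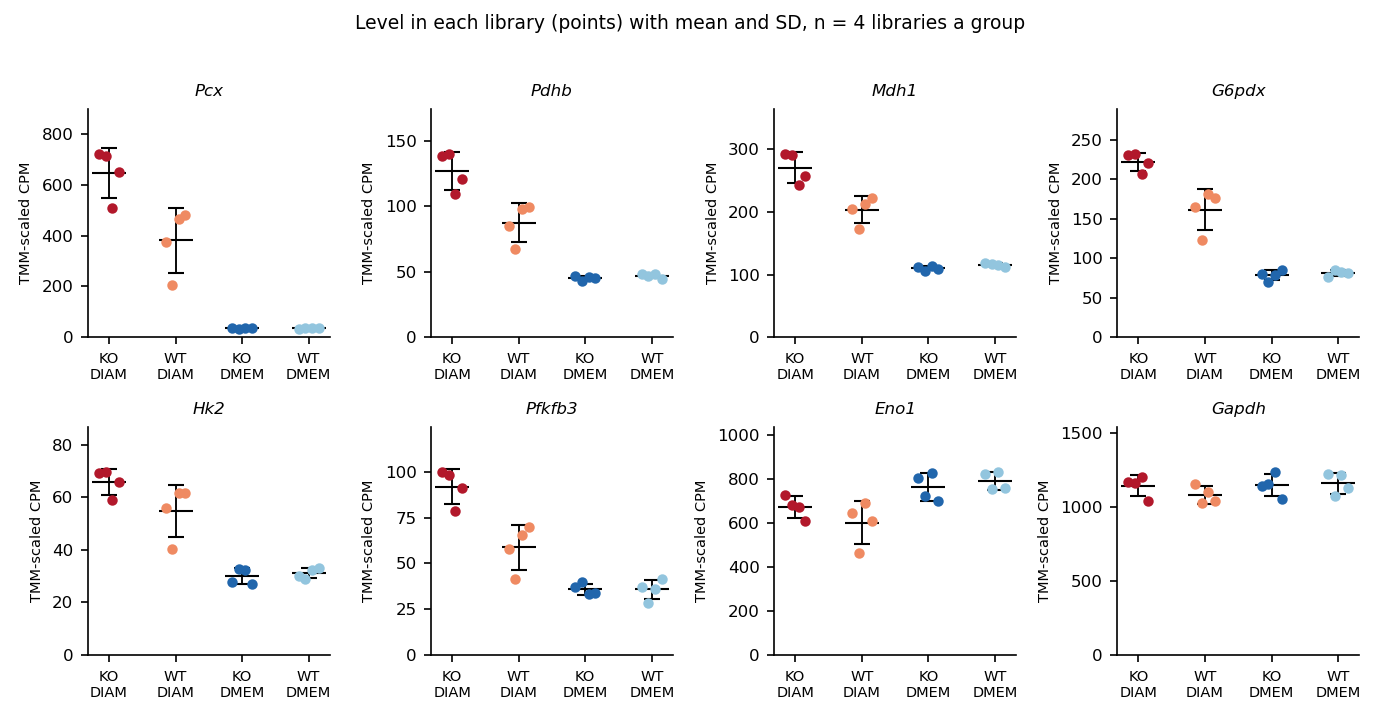
TMM-scaled CPM (y axis) of 8 of the 44 genes in each library (points) of the 4 groups (x axis), with mean and SD, n = 4. Pcx lies between 204 and 720 CPM in DIAM and between 31.5 and 37.8 CPM in DMEM. Pdhb, Mdh1, G6pdx, Hk2 and Pfkfb3 are higher in DIAM, Eno1 is lower in WT DIAM than in WT DMEM, and Gapdh passed no test.

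The Pcx and Pdhb promoters are given as those of the 2 citrate-making genes with the largest changes. Pcx has 2 start sites in the table, chr19:4510222-4510521 and chr19:4594069-4594368, both on the plus strand, and Pdhb has 1, chr14:8172943-8173242 on the minus strand. Capitals mark ACGTG and TGACNNNGC on either strand.
Pcx, upstream start: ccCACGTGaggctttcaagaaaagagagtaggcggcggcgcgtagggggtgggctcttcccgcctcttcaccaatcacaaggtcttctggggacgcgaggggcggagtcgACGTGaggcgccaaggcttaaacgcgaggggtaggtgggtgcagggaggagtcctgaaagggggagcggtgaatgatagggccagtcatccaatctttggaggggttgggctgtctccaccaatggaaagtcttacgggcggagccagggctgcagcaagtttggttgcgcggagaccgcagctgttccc
Pcx, downstream start: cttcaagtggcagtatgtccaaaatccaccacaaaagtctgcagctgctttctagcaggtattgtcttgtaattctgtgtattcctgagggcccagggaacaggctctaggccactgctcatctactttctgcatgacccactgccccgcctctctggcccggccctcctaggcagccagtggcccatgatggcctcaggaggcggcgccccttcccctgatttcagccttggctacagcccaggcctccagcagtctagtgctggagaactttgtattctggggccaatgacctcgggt
Pdhb: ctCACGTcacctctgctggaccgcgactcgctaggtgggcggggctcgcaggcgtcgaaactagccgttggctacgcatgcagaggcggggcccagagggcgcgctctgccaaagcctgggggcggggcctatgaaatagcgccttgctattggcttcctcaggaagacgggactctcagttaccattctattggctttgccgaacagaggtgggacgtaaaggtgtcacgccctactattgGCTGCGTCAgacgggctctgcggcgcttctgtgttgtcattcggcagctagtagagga
The upstream Pcx window opens with an E-box, CACGTG, 248 bases before the start, and holds a further ACGTG 140 bases before it. No match was found in the downstream window. Pdhb has ACGTG 248 bases before the start and the antioxidant core 8 bases before it. The deposited table does not say which Pcx start was used. Windows were found for 43 of the 44 genes (63 windows), all but Idh3a. Of the other motifs searched on both strands, CACGTG was in 11.1% of the 63 windows (7 windows of 5 genes) and 7.15% of all. The sterol response element TCACNCCAC was in 3.17% (2 windows of 2 genes) and 1.24%, and the nuclear respiratory factor 1 consensus in 9.52% (6 windows of 6 genes) and 4.60%. The cyclic AMP response element TGACGTCA was in 7.94% (5 windows of 3 genes) and 1.79%, and the C/EBP site TTGCGCAA in 1.59% (1 window, of Rpia) and 0.183%. Several windows of Ogdh overlap, so 1 CACGTG or TGACGTCA site there was counted more than once. The same holds for ACGTG in Ogdh and Aldoa. The palindromic glucocorticoid response element consensus and the estrogen-related receptor site TCAAGGTCA were in none of the 63 windows, and in 0.00913% and 0.423% of all. Every CACGTG contains ACGTG, so those matches count under both.

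In the rest of the TCA cycle Mdh1 and Idh3a rose most. Mdh1 (ENSMUSG00000020321), the cytosolic malate dehydrogenase of the malate shuttle, had 292, 290.2, 243 and 257 CPM in KO DIAM, 205, 173, 212 and 222 CPM in WT DIAM, 112, 105, 114 and 109 CPM in KO DMEM, and 118, 116, 115 and 112 CPM in WT DMEM. The rise was 2.46-fold in KO cells (SE of the log2 value 0.073, adjusted p = 4.21e-10, edgeR) and 1.76-fold in WT cells (SE 0.073, adjusted p = 1.03e-07), without overlap. Mdh2, the mitochondrial form, had 237, 227, 194 and 219.7 CPM in KO DIAM, 179, 159.6, 198 and 192 CPM in WT DIAM, 166, 142, 156 and 152 CPM in KO DMEM, and 158, 157, 162 and 147 CPM in WT DMEM, a rise of 1.43-fold in KO cells and of 1.17-fold in WT cells with overlapping libraries. The 3 subunits of the NAD-dependent isocitrate dehydrogenase rose together and without overlap. Idh3a, the catalytic subunit, had 138, 140.2, 109.8 and 115 CPM in KO DIAM, 91.0, 72.1, 102 and 101 CPM in WT DIAM, 54.8, 48.5, 54.3 and 46.7 CPM in KO DMEM, and 53.9, 49.0, 48.3 and 47.6 CPM in WT DMEM. Idh3b had 148, 144, 121 and 125 CPM in KO DIAM, 102, 95.5, 105 and 106 CPM in WT DIAM, 68.7, 73.6, 68.8 and 71.9 CPM in KO DMEM, and 72.8, 66.3, 66.2 and 68.3 CPM in WT DMEM. Idh3g had 106, 108, 91.7 and 99.3 CPM in KO DIAM, 73.2, 61.7, 80.0 and 82.5 CPM in WT DIAM, 42.0, 45.7, 43.8 and 44.1 CPM in KO DMEM, and 45.9, 42.6, 41.1 and 42.0 CPM in WT DMEM. Their log2 fold changes were 1.30, 0.93 and 1.21 in KO cells and 0.88, 0.58 and 0.79 in WT cells. Ogdh, the decarboxylase of the oxoglutarate dehydrogenase complex, had 299, 304, 264 and 274 CPM in KO DIAM, 239, 211, 243 and 238 CPM in WT DIAM, 151, 144, 159 and 142 CPM in KO DMEM, and 143, 151, 163 and 152 CPM in WT DMEM, again without overlap between media. Fh1, fumarase, had 81.5, 77.7, 64.8 and 73.7 CPM in KO DIAM, 63.5, 57.0, 55.8 and 60.2 CPM in WT DIAM, 43.6, 43.2, 43.1 and 46.4 CPM in KO DMEM, and 51.0, 35.2, 44.2 and 41.0 CPM in WT DMEM, also without overlap. Ogdh rose 1.91-fold in KO and 1.53-fold in WT cells, and Fh1 1.69-fold and 1.38-fold (adjusted p = 4.71e-04 or lower, edgeR). Succinyl-CoA ligase has a common alpha subunit, Suclg1, and either an ADP-forming beta subunit, Sucla2, or a GDP-forming beta subunit, Suclg2. Sucla2 had 103, 105, 89.5 and 93.7 CPM in KO DIAM, 82.2, 69.3, 87.0 and 81.5 CPM in WT DIAM, 65.6, 61.5, 64.6 and 64.6 CPM in KO DMEM, and 69.1, 67.4, 72.5 and 67.1 CPM in WT DMEM. It rose 1.53-fold in KO cells (adjusted p = 7.79e-07, edgeR) and 1.16-fold in WT cells (adjusted p = 0.0123), where libraries overlapped. Suclg1 rose 1.48-fold and 1.29-fold in KO and WT cells, and Suclg2 passed in neither (0.19 and 0.031 on the log2 scale, adjusted p = 0.0574 and 0.765). Aco1, the cytosolic aconitase that also acts as an iron sensor, rose 1.63-fold in KO cells and 1.25-fold in WT cells (adjusted p = 4.67e-06 and 0.00533, edgeR).

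A few of these calls in the change of medium hung on 1 library. In WT cells the call of Pkm was lost without WT DIAM 2, WT DIAM 4 or any of WT DMEM 1, 3 and 4, that of Eno2 without WT DIAM 3 or WT DMEM 4, and that of Mdh2 without WT DIAM 3, WT DIAM 4 or WT DMEM 4. Slc2a1 was called in WT cells without WT DIAM 2 or WT DMEM 4, Ldha without WT DIAM 3 and Aldoc without WT DIAM 4. These 3 were also called in WT cells under whole alternative settings. For Aldoc these were quantile normalization, DESeq2, the replicate block, the fit of the 8 WT libraries and the authors' deposited table. For Slc2a1 they were DESeq2 and the replicate block, and for Ldha quantile normalization and the replicate block. Other settings also ended some calls. In WT cells Idh1 and Pkm were not called with quantile normalization, in the fit of the 8 WT libraries or in the authors' deposited table, Idh1 was also not called without the filter on low counts or with the replicate block, and Hk1 was not called in the authors' deposited table (adjusted p = 0.0712). In KO cells Tkt was not called with quantile normalization and Pgk1 was not called with median-ratio scaling or without the filter, while Hk1 was called by DESeq2, with median-ratio scaling and in the fit of the 8 KO libraries. The contrast of Hk1 between genotypes thus changed with the processing. With 1 library left out, in KO cells Hk1 was called without KO DIAM 1 or KO DMEM 3, and Suclg2 without KO DIAM 3, KO DMEM 1 or KO DMEM 4. Suclg2 was also called in KO cells by DESeq2, with median-ratio scaling and with the replicate block. Pfkl was called in KO cells with quantile normalization and in the fit of the 8 KO libraries. Pgam1 was called there with quantile normalization and Aldoc with the replicate block.

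Neighbouring genes of the same pathways, from lists not among the 44, were read in the same comparison. Their counts stand beside 29.8% of all genes tested higher and 30.8% lower in KO cells, and 27.6% higher and 27.5% lower in WT cells. For pyruvate dehydrogenase control, 5 of 8 genes rose and 1 fell in KO cells, and 6 rose and 1 fell in WT cells. Pdk4, the kinase that switches the complex off, averaged 281 ± 9.84 CPM in KO DIAM, 285 ± 21.3 in WT DIAM, 21.1 ± 3.60 in KO DMEM and 21.6 ± 1.02 in WT DMEM, log2 fold changes of 3.73 and 3.72. The kinase Pdk2 and the binding protein Pdhx of the complex rose as well (1.22 and 1.55 in KO, 0.72 and 0.84 in WT cells), and Pdk1, a kinase known as hypoxia-inducible, fell (-0.72 and -1.01). The phosphatase Pdp1, which switches the complex on, rose (1.13 and 1.05).

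Among 7 genes of lactate and pyruvate transport, 3 rose and 2 fell in each genotype, shares not far from those over all genes. Slc16a3, the lactate exporter of glycolytic cells, fell to 7.86 ± 1.10 CPM in KO DIAM, against 40.5 ± 4.98 in KO DMEM, and to 7.94 ± 0.915 CPM in WT DIAM, against 40.9 ± 5.76 in WT DMEM (adjusted p = 2.91e-10 and 3.39e-10, edgeR). Its chaperone Bsg fell too. Ldhd, a mitochondrial D-lactate dehydrogenase, and Mpc1 and Mpc2, the mitochondrial pyruvate carrier, rose. The carrier's log2 fold changes were 0.76 and 1.20 in KO cells and 0.36 and 0.67 in WT cells. In the list of other glycolysis genes, 20 of 28 were tested, 10 rose and 7 fell in KO cells, and 11 rose and 7 fell in WT cells. Gpd1, which diverts triose to glycerol phosphate for lipid, had 296 ± 55.7 CPM in KO DIAM, 163 ± 53.6 in WT DIAM, 1.26 ± 0.458 in KO DMEM and 1.60 ± 0.455 in WT DMEM. Slc2a4, the insulin-responsive glucose transporter, had 61.7 ± 7.95, 36.3 ± 11.4, 1.42 ± 0.583 and 1.71 ± 0.603 CPM in the same groups. Both genes rose and are also abundant in adipocytes, whose markers moved with them. The transporter Slc2a6 and the bisphosphoglycerate mutase Bpgm fell.

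In the list of citrate export and use, 6 of 6 genes rose in KO cells, and 4 rose and 1 fell in WT cells. Fasn, fatty acid synthase, had 2800.4 ± 394 CPM in KO DIAM, 1434 ± 536 in WT DIAM, 301 ± 17.0 in KO DMEM and 331 ± 40.2 in WT DMEM. Acaca, the acetyl-CoA carboxylase of fatty acid synthesis, and the acetyl-CoA synthetases Acss1 and Acss2 rose in both. The mitochondrial citrate carrier Slc25a1 fell in WT cells (-0.21 on the log2 scale) and rose in KO cells (0.17). Other genes linked to NADPH, not all of which make it, gave 7 rises and 3 falls in KO cells and 5 rises and 1 fall in WT cells, of 11 tested. Aldh1l1 of folate metabolism, the NAD kinase Nadk and the mitochondrial malic enzymes Me3 and Me2 had the smallest p in WT cells, and all 4 rose in both genotypes. Other pentose phosphate genes gave 5 rises and no fall of 8 tested in each genotype, among them H6pd, the glucose phosphate dehydrogenase of the endoplasmic reticulum (1.35 and 1.24), and Prps2, Rbks and Prps1. Of 9 other TCA cycle genes, 7 rose and 1 fell in KO cells, and 4 rose and 1 fell in WT cells. Dlst of the oxoglutarate dehydrogenase complex (0.76 and 0.52) and Sdha of succinate dehydrogenase (1.10 and 0.66) rose, and Ogdhl, a relative of Ogdh, fell. Among 10 anaplerosis genes 6 rose and 1 fell in KO cells, and 7 rose and 2 fell in WT cells. The mitochondrial dicarboxylate carrier Slc25a10 (2.45 and 1.88), glutamate dehydrogenase Glud1 (1.85 and 1.38) and the alanine aminotransferase Gpt rose, and the aspartate-glutamate carrier Slc25a13 fell.

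Genotype made no difference that passed the test in DMEM. None of the 44 genes was called for KO against WT (0.00% of all genes tested were called by edgeR), and none had an unadjusted p under 0.05, against 438 of all genes. DESeq2 and the authors' deposited table also called none of the 44. Log2 fold changes of KO over WT ran from -0.11 (Sucla2) to 0.15 (Aldoc), with a median of -0.03 beside -0.01 over all genes. Among the 44, Sucla2 was the gene whose groups did not overlap, with every KO DMEM library below every WT DMEM library (over all genes 0.823% lay lower and 0.774% higher without overlap).

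In DIAM 21 of the 44 genes (47.7%) were higher in KO than in WT cells and none was lower, while 8.38% of all genes tested were called, 3.43% higher and 4.95% lower. By branch these were all 6 citrate-making genes, 8 of 11 in the rest of the TCA cycle, 3 of 5 NADPH-making genes (G6pdx, Pgd, Idh1), 2 of 3 non-oxidative pentose phosphate genes (Tkt, Taldo1) and 2 of 19 glycolytic genes (Pfkfb3, Aldoa). The 3 TCA cycle genes not called were Aco1 (adjusted p = 0.0574), Suclg1 (adjusted p = 0.0596) and Suclg2 (adjusted p = 0.387, edgeR). The median log2 fold change of KO over WT was 0.40 for the citrate-making, 0.29 for the other TCA cycle, 0.21 for the NADPH-making and 0.13 for the glycolytic genes, against 0.00 over all genes. Among the genes called, Pcx differed most, 1.70-fold (log2 0.76, SE 0.20, adjusted p = 0.0317, edgeR), followed by Pfkfb3 at 1.56-fold (adjusted p = 0.0167) and Pdhb at 1.45-fold (adjusted p = 0.0120). Log2 fold changes of the other called citrate-making genes were 0.44 for Dlat, 0.36 for Cs, 0.30 for Dld and 0.23 for Pdha1. In the TCA cycle they were 0.46, 0.45 and 0.40 for Idh3a, Idh3g and Idh3b, 0.41 for Mdh1, 0.33 for Fh1, 0.29 for Ogdh, 0.29 for Sucla2 and 0.27 for Mdh2. G6pdx had 0.46, Taldo1 0.35, Tkt 0.34, Pgd 0.32, Aldoa 0.27 and Idh1 0.21. Of the 21 genes called, 18 had every KO DIAM library above every WT DIAM library, and Dlat, Dld and Mdh2 did not. Over all 44, 19 lay higher without overlap (7.38% of all genes) and 1 lower, Pfkp (9.05% of all genes), whose log2 fold change of -0.18 did not pass (adjusted p = 0.134).

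**Figure D4:**
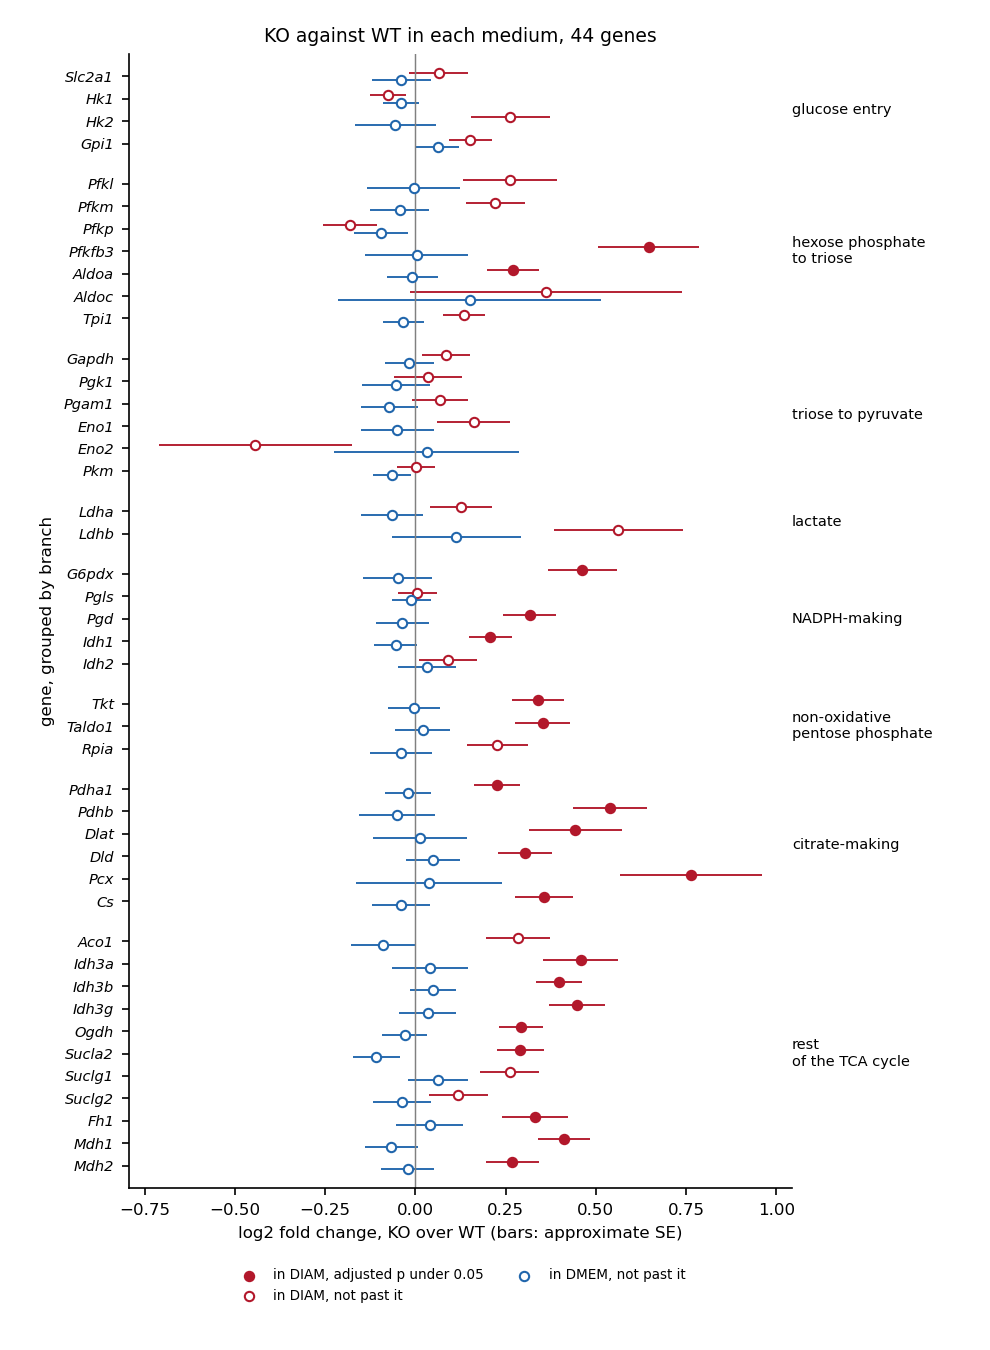
Log2 fold change of KO over WT (x axis) for the 44 genes grouped by branch (y axis), in DIAM (red) and in DMEM (blue). Filled points passed an adjusted p under 0.05 in edgeR's test, open points did not, and bars are approximate standard errors. All points in DMEM are open and lie between -0.11 and 0.15, and 21 points in DIAM are filled, with Pcx at 0.76.

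Among the neighbouring genes, in citrate export and use, 5 of 6 were higher in KO DIAM than in WT DIAM, among them Fasn (0.97, adjusted p = 0.0197, edgeR), Acaca (0.73) and Slc25a1 (0.31). Both subunits of the mitochondrial pyruvate carrier were higher, as were Pdk2, Pdhx and Pdpr of pyruvate dehydrogenase control and Dlst and Sdha of the other TCA cycle genes. Me1, the cytosolic malic enzyme that makes NADPH, was higher at 513 ± 76.8 CPM in KO DIAM, against 309.5 ± 80.0 CPM in WT DIAM (adjusted p = 0.0173, edgeR), and is named after its values were seen, as are Mthfd1l and Aldh1l2, both of mitochondrial folate metabolism, which were lower (-0.80 and -0.73 on the log2 scale). These 3 were the genes called of the 11 other genes linked to NADPH that were tested. Of 20 other glycolysis genes tested, 2 were higher and 2 lower, and of 8 other pentose phosphate genes none was called, with adjusted p of 0.0957 for the lowest, Shpk.

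Some of these calls also changed with the test. Dlat and Pdha1 were not called in the authors' deposited table (adjusted p = 0.0523 and 0.0578), Dlat, Pdha1, Mdh2 and Idh1 were not called without the filter on low counts, and Dlat and Idh1 were not called with the replicate block. Other calls were gained. DESeq2 also called Aco1, Ldhb and Suclg1, and the filter at 5 CPM also gave Aco1. The authors' deposited table also called Aco1 and Ldhb (adjusted p = 0.0471 and 0.0101), and Pfkp as lower in KO cells (adjusted p = 0.0224).

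The genotype calls in DIAM rest on few libraries. Leaving out KO DIAM 2 left 4 of the 44 genes called, KO DIAM 1 left 5, WT DIAM 1 left 9 and WT DIAM 2 left 13, and leaving out any other DIAM library left 17 to 24. Over all genes, in the same order, 178, 275, 299 and 316 were called, against 1191 with all 16 libraries. The median log2 fold change over the 44 genes was 0.25, 0.23, 0.28 and 0.20 in these fits, against 0.27. Without WT DIAM 2 the Pcx log2 fold change was 0.56 instead of 0.76, and that of Pfkfb3 0.52 instead of 0.65. Both genes stayed called there (adjusted p = 0.0289 and 0.0341, edgeR). In a fit of the 8 DIAM libraries alone no gene of the 14217 was called. In that fit 27 of the 44 genes had an unadjusted p under 0.05 (26 of them higher in KO, and 3674 over all genes), and the smallest adjusted p among the 44 was 0.0655. The 16-library model shares its spread over the groups, and the median within-group SD of log2 CPM over the 44 genes was 0.107 in KO DIAM and 0.163 in WT DIAM, against 0.0812 in KO DMEM and 0.0758 in WT DMEM. Over all genes these medians were closer together, at 0.106, 0.122, 0.117 and 0.117 in the same order. WT DIAM 2 had the lowest level of its group for 38 of the 44 genes and KO DIAM 3 for 33. Marker genes moved alongside. Adipocyte markers summed to 3515, 3321, 2436 and 3239 CPM in the KO DIAM libraries and 2320, 1701, 2518 and 2599 CPM in the WT DIAM libraries, and 1 of 7 was called higher in KO (Plin1, adjusted p = 0.0494, edgeR). Schwann cell or glial markers, 4 of 5 tested, summed to 13.7, 36.5, 53.6 and 53.8 CPM in KO DIAM and 138, 214.9, 91.7 and 91.5 CPM in WT DIAM. WT DIAM 2 was lowest in the first and highest in the second. The part of these markers in the genotype result was not tested.

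**Figure D5:**
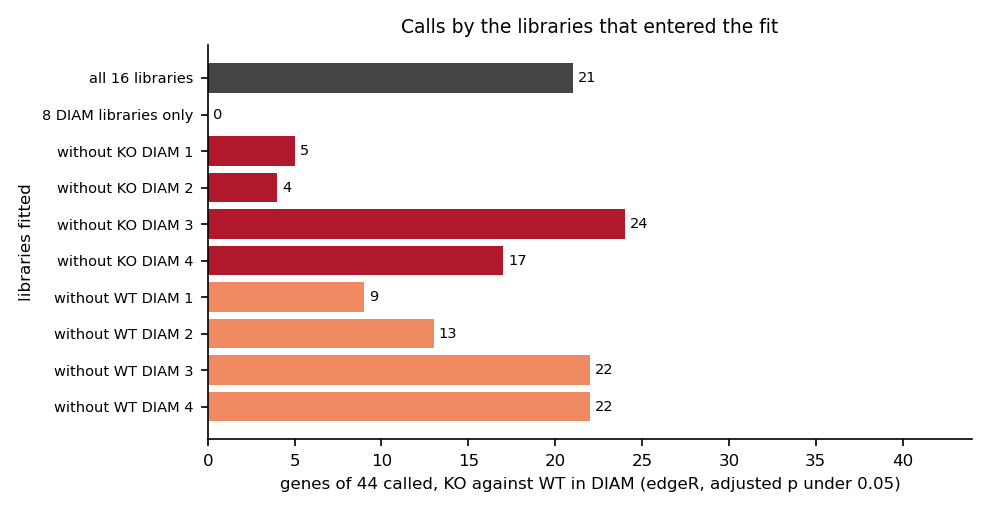
Number of the 44 genes called for KO against WT in DIAM (x axis; edgeR, adjusted p under 0.05) by the libraries that entered the fit (y axis). The count is 21 with all 16 libraries, 0 with the 8 DIAM libraries alone, and between 4 and 24 when 1 DIAM library is left out. Over all genes tested, which are not drawn, it is 1191, 0, and between 178 and 1480.

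Whether DIAM acted differently in KO and WT cells was tested by the interaction of genotype and medium, which uses all the libraries of the comparisons above. None of the 44 genes passed by edgeR (0.00% of all genes tested), with 24 at an unadjusted p under 0.05 (2255 over all genes) and a smallest adjusted p of 0.171 (Sucla2). Of the 44 log2 interaction values, 41 were above 0, with a median of 0.27 beside 0.00 over all genes. DESeq2 called 7 of the 44 on the same counts, and the authors' deposited table called the same 7: G6pdx, Pdhb, Idh3b, Idh3g, Ogdh, Sucla2 and Mdh1. Their edgeR log2 interaction values were 0.51, 0.59, 0.35, 0.41, 0.32, 0.40 and 0.48, each with an adjusted p of 0.171 to 0.176. Whether a larger rise in KO than in WT cells was called thus depended on the tool.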

How the data were processed

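Total RNA of 16 cultures was sequenced after depletion of ribosomal RNA with an unstranded TruSeq kit, per the labels' protocols, so overlapping antisense transcripts cannot be told apart. Build GRCm39 and the tools Salmon 1.9.0, FastQC, R 4.4.2 and DESeq2 1.46.0 are listed, without their roles, in the submitters' processing notes. The labels call the library columns TPM, but the deposited columns sum to between 37221192 and 47626331 and are not whole, so they were treated as estimated counts and rounded. The authors' deposited table also gives, for 4 comparisons, a log2 fold change, a p-value and its adjusted value, which were used as an alternative; it has none for DIAM against DMEM in KO cells.

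Genes at 1 CPM or more in at least 4 libraries were tested with edgeR 4.0.16 in R 4.3.3 (trimmed-mean scaling, robust quasi-likelihood F test, two-sided, 4 group means, 12 residual degrees of freedom), and p-values were adjusted by Benjamini-Hochberg over the 14217 genes. DESeq2 1.42.0 and limma 3.58.1 were alternatives, as were median-ratio scaling, quantile normalization, no filter, a filter at 5 CPM, a replicate block, fits of only the groups compared and leaving out each library. The filter kept at least 99.8% of each library's counts, and each level is TMM-scaled CPM. Standard errors are approximate: the size of the log2 fold change over the square root of its F statistic. P-values measure the spread between cultures, and whether each culture came from its own mouse is not given. Scripts were tested on simulated data.

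The genes, their branches and the neighbouring lists were chosen with earlier results of these data known. Values in every library are given for the 2 genes of each branch with the largest change among those past the threshold in both genotypes, for any gene called for KO against WT, and for a gene that moves against its branch in both genotypes; of the neighbouring lists, up to 4 genes of smallest p in WT cells are named, and control or transport steps, except for a few genes that are not reported here. Promoter windows are from RefSeq on build GRCm38.p6, an older build than that of the counts, and were used for their sequence alone.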

Additional observations from a re-analysis of the deposited data

Results flagged for a closer look

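For 9 of 176 group and gene pairs, 1 library stood far from the other 3 of its group; chance alone flags about 1 in 20 such groups, and 9 of 176 is 5.11%. Among glycolytic genes these were Aldoc in WT DMEM 4 (6.01 CPM, the others 3.66 to 4.03) and Pkm in WT DMEM 2 (1019 CPM, the others 1076 to 1087). Among the NADPH-making genes they were Idh1 in KO DIAM 3 (274 CPM, the others 299 to 304), Idh2 in KO DIAM 4 (111 CPM, the others 98.8 to 100.2) and Pgls in WT DMEM 1 (48.8 CPM, the others 42.6 to 43.2). Taldo1 was low in WT DIAM 2 (87.8 CPM, the others 108 to 112) and Rpia low in WT DMEM 1 (8.24 CPM, the others 9.77 to 9.97). In the mitochondrial genes Fh1 was high in KO DMEM 4 (46.4 CPM, the others 43.1 to 43.6) and Dlat high in WT DMEM 3 (67.1 CPM, the others 60.1 to 60.8).

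Sucla2, the ADP-forming subunit of succinyl-CoA ligase, stood out because its libraries were ordered in opposite ways in the 2 media. Every KO library was above every WT library in DIAM (log2 fold change 0.29), and every KO library was below every WT library in DMEM, where the difference did not pass the test (-0.11, unadjusted p = 0.121, edgeR). For DMEM the authors' deposited table gave an unadjusted p of 0.0416 and did not call the gene either. The difference between the media did not pass edgeR's interaction test (log2 0.40, adjusted p = 0.171), while DESeq2 and the authors' deposited table called it.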

How the results depend on the processing

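No fold change of the 44 genes that was called changed sign under any alternative run. For the change of medium, the number of genes called stayed within 1.5 times its value under every alternative, except that in KO cells quantile normalization gave 5 of the 44 lower instead of 3, and leaving out 1 library gave 1 to 3 (1 without KO DIAM 3 or KO DIAM 4). For KO against WT in DMEM, DESeq2 called 1 gene of all tested, higher in KO, the authors' deposited table called 2, both higher, and leaving out 1 library gave 0 to 2 (2 without KO DMEM 1). For KO against WT in DIAM, DESeq2 called 1873 genes (859 higher) and the authors' deposited table called 1810 (795 higher, and 1 of the 44 lower, Pfkp), while the fit of the 8 DIAM libraries called 0 in either direction, among the 44 and over all genes. Leaving out 1 library gave 4 to 24 of the 44 and 178 to 1480 of all genes, 43 to 643 higher and 135 to 837 lower, with 178 to 316 genes when the library was KO DIAM 1, KO DIAM 2, WT DIAM 1 or WT DIAM 2. For the interaction, DESeq2 called 7 of the 44, all higher, and 225 genes (97 higher, 128 lower), the authors' deposited table called 7, all higher, and 234 (104 higher, 130 lower), and leaving out 1 library gave 0 to 1 gene, lower (1 without KO DMEM 1). The cause of these differences was not tested.

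Libraries share replicate numbers 1 to 4 in every group, but the labels do not say what a number marks. The deviations of same-numbered libraries correlated at -0.09 to 0.27 for the media in WT cells, 0.01 to 0.32 in KO cells, -0.22 to 0.17 for the genotypes in DMEM and -0.20 to -0.04 in DIAM. Between media, WT DIAM 1, 3 and 4 and KO DIAM 1 and 4 correlated best with the DMEM library of their own number. Between genotypes only KO DMEM 4 did so. Pairing of the media within a genotype thus remains possible, but the numbers were not taken as pairs because the labels do not explain them. A fit with the replicate block called 35 of the 44 for the medium in KO cells, 37 in WT cells and 19 for KO against WT in DIAM, and 0 for KO against WT in DMEM and for the interaction. That block joined KO and WT libraries of the same number, so pairing within a genotype alone was not fitted. Counting error bears most on Aldoc, whose lowest group mean was 2.47 CPM in libraries of at least 37221313 counts; every other gene of the 44 averaged at least 8.93 CPM in each group.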
